A study of Drosophila melanogaster with 2 samples.

Results

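The regions described here are 422 peaks of Bowl-eGFP binding that lie deep inside introns, out of 2198 peaks in the list called from both replicates pooled (19.2%, 95% Wilson interval 17.6 to 20.9). A peak was taken when its summit, the base of highest signal, lay inside the body of a protein-coding gene, outside coding sequence (CDS) and untranslated regions (UTR), and more than 2000 bp from the nearest transcription start site (TSS) of any protein-coding gene. They are called far intronic peaks below. The other 1776 peaks comprised 618 intronic peaks within that distance of a TSS, called near intronic, 562 intergenic peaks near a TSS, 192 intergenic peaks far from one, and 404 peaks in CDS or UTR. Signal played no part in this choice beyond the entry of a peak into the list, which required an irreproducible discovery rate (IDR) of at most 0.01. Candidate regions above that rate are called failing candidates, and a smaller pooled list that the authors marked conservative is used beside the main one.

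The study profiled 1 group by chromatin immunoprecipitation and sequencing (ChIP-seq). Its 2 samples are biological replicates 1 and 2 of whole Drosophila melanogaster embryos, aged 0 to 24 h, of the strain bowl-GFP, which carries a transgene for a bowl-eGFP fusion protein. Precipitation was with an antibody against GFP per the sample descriptions, although the antibody field of the labels names bowl. The embryos pool every stage and tissue of that day, so a peak cannot be placed in a cell type, and neither untagged embryos nor the control chromatin were analysed here. With 1 group, no comparison between conditions could be made, and the comparisons below are between sets of regions within these samples. They are descriptions with 95% Wilson intervals that cover counting error over regions only, since neighbouring peaks are not independent replicates. Read depth is unknown, because the lists hold no read counts.

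Bowl, encoded by brother of odd with entrails limited, belongs to the odd-skipped family of zinc-finger proteins, together with odd-skipped (odd), sister of odd and bowl (sob) and drumstick (drm). The family is known for roles in embryonic segmentation, in hindgut and foregut patterning and in forming leg joints, and Drm is known to relieve repression of Bowl by Lines. Long introns of Drosophila developmental genes often hold enhancers, stretches that raise transcription from a start site some distance away, so introns are a common place to find bound transcription factors. Binding measured by ChIP-seq does not by itself show which gene, if any, a site acts on.

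Short stretches of the members are shown first, because the measurements of words and base composition below refer to them. All are from the RefSeq Release 6 genome, the dm6 assembly, and run 5′ to 3′. The first set holds ACAGTGG, in capitals, the word that ranked high in earlier results of these data, in the strongest 5 of the members whose stretch is shown here. The summits lay 60 to 84 bp downstream of the word, reading along the strand printed.
CHES-1-like, chrX:7706891-7706920, plus strand: atcgttgtggtACAGTGGaaactgctttaa
Lrch, chr2L:17379150-17379179, minus strand: aagcattgcttACAGTGGgcacgcgctgta
Hr4, chrX:1963851-1963880, plus strand: gctggagagctACAGTGGtagctccacaga
CHES-1-like, chrX:7700313-7700342, plus strand: catcacaaactACAGTGGactctccataac
CG8034, chrX:19289431-19289460, plus strand: cgcattgcagcACAGTGGgcactgcctatg
The second set holds CACTGA, in capitals, a word chosen after all 7-base words had been ranked in these members. On its opposite strand it reads TCAGTG, so both words contain CAGTG.
osa, chr3R:17700443-17700472, minus strand: cgccactgctccCACTGAgctctctccgct
Gug, chr3L:8458402-8458431, minus strand: acggacagactaCACTGAtaaaaaaaatgg
aos, chr3L:16480637-16480666, minus strand: tgtgagtggctaCACTGAgcaaagttcttt
CG6966, chr3R:15087853-15087882, minus strand: ttcgtattgcggCACTGAaagaaataagag
The third set holds CAGTAGC, in capitals, the core that odd-skipped family proteins are known to prefer, in members at 3 developmental genes.
cic, chr3R:20257431-20257460, plus strand: cgggttaacacCAGTAGCtgtctgacggct
dpp, chr2L:2430450-2430479, minus strand: ctgctgatgacCAGTAGCcacttaacttgg
Raf, chrX:2302247-2302276, plus strand: tgtacatatgtCAGTAGCtttggcgcgatt
The last set shows the 30 bases at the summits of strong members, with no word marked, for their content of A and T, which was 83.3% at Tlk, 90.0% at osa and 53.3% at Raf. Each of osa and Raf has another strong summit with fewer, where 18 of 30 bases at osa and 12 of 30 at Raf were A or T.
Tlk, chrX:3742217-3742246, plus strand: agttttaatcaagatagattttttattaca
osa, chr3R:17700535-17700564, plus strand: aactatacatatttaaaataagaattatat
Raf, chrX:2297692-2297721, plus strand: tctctcatttttcccgcaccaattctgcac

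The strongest far intronic peak lay in Tlk, which encodes Tousled-like kinase, a kinase of chromatin assembly, at chrX:3742094-3742338 and 2335 bp from the nearest TSS. Its peak signal, a score without a stated scale that the authors' peak caller gave each region, was 522 in the pooled list, 295 in replicate 1 and 237 in replicate 2. Pooled and replicate signals come from separate lists and share reads, so the pooled value is not a further measurement. CG32486 held the next, with 375 pooled, 224 in replicate 1 and 154 in replicate 2, in an intron of 12037 bp. Both replicates placed these members far above the typical member, whose median was 50.6 in replicate 1 and 31.8 in replicate 2. The strongest members were picked by pooled signal, so high values in the replicates are partly built into the choice.

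A peak in CHES-1-like, a forkhead transcription factor gene, had 374 pooled, 236 in replicate 1 and 146 in replicate 2, and lay 2026 bp from a TSS, close to the distance limit. A peak in Hr3, a nuclear receptor of the ecdysone response, had 372 pooled, 239 and 131, at 7907 bp from a TSS. CG12769 had 374 pooled, 267 in replicate 1 and 102 in replicate 2. Each of these 3 peaks stood far above the median member in either replicate's list.

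The gene osa, which encodes a subunit of the Brahma chromatin remodelling complex, held a pair of strong peaks that lay 13479 and 13923 bp from the nearest TSS. The first, at chr3R:17700453-17700678, had 341 pooled, 216 in replicate 1 and 121 in replicate 2. The second, at chr3R:17704319-17704502, had 329 pooled, 199 and 133. Raf, the kinase that carries receptor tyrosine kinase signals to MEK, held another pair, with 312 pooled, 196 and 117 at chrX:2300610-2300790 and 300.2 pooled, 175 and 121 at chrX:2297624-2297795. Within each pair the peaks had close values in both replicates.

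The other peaks among the strongest 15 lay in Lrch (245 pooled), Gug (244), Btk (235), simj (233), upSET (229) and JIL-1 (226). Gug encodes the Atrophin corepressor, Btk a Tec-family tyrosine kinase, simj a subunit of the NuRD complex, upSET a SET-domain chromatin protein and JIL-1 a histone H3 kinase. All 15 overlapped a peak in each replicate's own list and were in the conservative list. They lay in 13 genes, and the weakest of them ranked 160 among the 2198 peaks. Overlap with both lists was common among strong peaks, at 89.3% of the 550 peaks of highest pooled signal.

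The whole set was weaker than those examples. Pooled signal ran from 4.09 to 522, with quartiles at 65.5 and 109 and a median of 77.3, against a median of 82.6 over all peaks, 87.0 over near intronic peaks and 84.6 over far intergenic peaks. Peaks in CDS or UTR had a lower median, 71.8, and intergenic peaks near a TSS a higher one, 94.3. With the list split by signal into 4 parts of equal size, called bins 1 to 4 from low to high, far intronic peaks made up 21.6% of bin 1, 22.0% of bin 2, 18.4% of bin 3 and 14.7% of bin 4 (12.01 to 17.9). The 36159 far intronic candidates that did not pass the threshold had a median signal of 17.7, a gap that the threshold itself brings about.

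The lowest 3 members were in egr, a tumour necrosis factor gene, with 6.02, in Hipk, a homeodomain-interacting protein kinase gene, with 5.61, and in bun, a TSC-22 family gene, with 4.09. They belong to 12 members whose pooled signal was under the median of the failing candidates, and all 12 overlapped a stronger pooled candidate. In Hipk, the peak of 5.61 overlapped one of 78.0. A replicate's candidate could then be matched to both peaks of such a pair, as in egr, where the peaks of 58.9 and 6.02 share the values 50.02 in replicate 1 and 17.8 in replicate 2. Only 5 of the 410 stronger members overlapped a stronger candidate. Merging members that overlap left 407 regions, and where the number of separate regions in a gene with 3 or more members differs from its number of peaks, it is given below.

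How often the pooled peaks were found again in the replicates' own lists was next compared. Replicate 1's list held 1662 peaks and replicate 2's list 772, against 2198 in the pooled list. The size of replicate 2's list limits the share that can overlap it, and so the share in both. Of the 422 far intronic peaks, 257 overlapped replicate 1's list (60.9%, 56.2 to 65.4), 115 overlapped replicate 2's list (27.3%, 23.2 to 31.7), 95 overlapped both (22.5%, 18.8 to 26.7) and 145 overlapped neither (34.4%, 29.99 to 39.0). Over all peaks, members included, the shares were 65.2%, 34.6%, 29.1% and 29.3%. Among near intronic peaks the share in both lists was 32.8% (29.3 to 36.6), above the interval of the far intronic peaks, and among far intergenic peaks it was 29.2%, with an interval of 23.2 to 35.9 that overlaps it. The conservative list held the same interval for 246 members (58.3%, 53.5 to 62.9), against 64.6% of all peaks, 67.0% of near intronic peaks and 71.9% of far intergenic peaks.

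**Figure D1:**
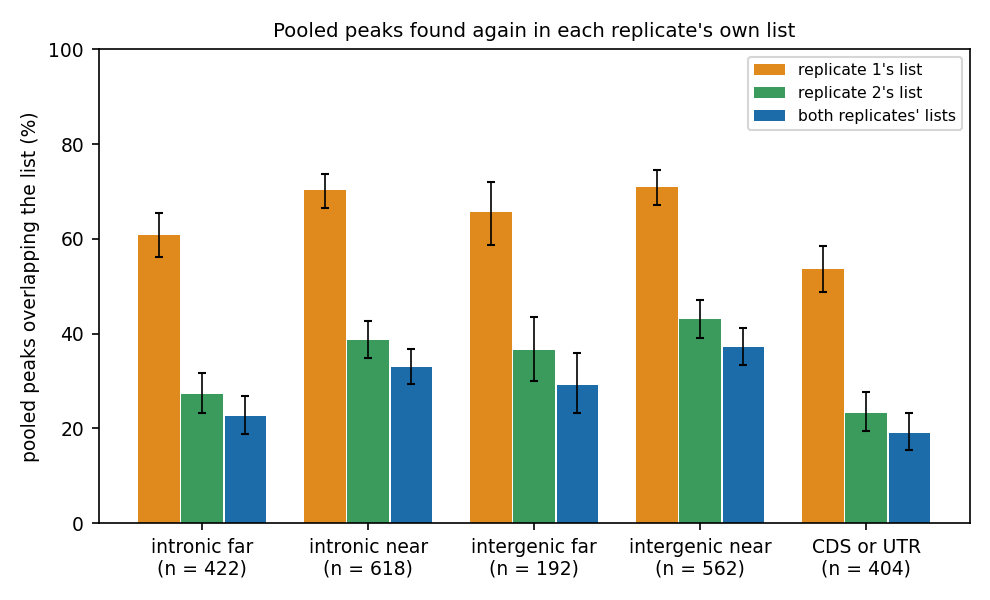
Share of pooled peaks in each position class that overlap replicate 1's list, replicate 2's list or both (y axis, percent, from 0 to 100). Bars are shares and lines are 95% Wilson intervals over peaks. In every class replicate 1's list covers more peaks than replicate 2's, and far intronic peaks reach 22.5% in both.

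The share in both lists followed the pooled signal. No member of signal bins 1 and 2 overlapped both lists (0 of 119 and 0 of 121), and 2.55% and 0.911% of all peaks in those bins did. In bin 3, 24.8% of members overlapped both (17.4 to 34.0), beside 23.7% of all peaks. In bin 4, 86.4% did (77.3 to 92.2), beside 89.3% of all peaks. In bins 3 and 4 the share of all peaks lay within the interval of the members.

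Every member overlapped a ranked candidate of replicate 1, and 417 overlapped one of replicate 2. The replicates' signals come from separate lists of unstated scale and depth, so their sizes are not compared between replicates. Signals in replicate 1 had quartiles at 39.995 and 68.4, and in replicate 2 at 23.7 and 42.3.

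**Figure D2:**
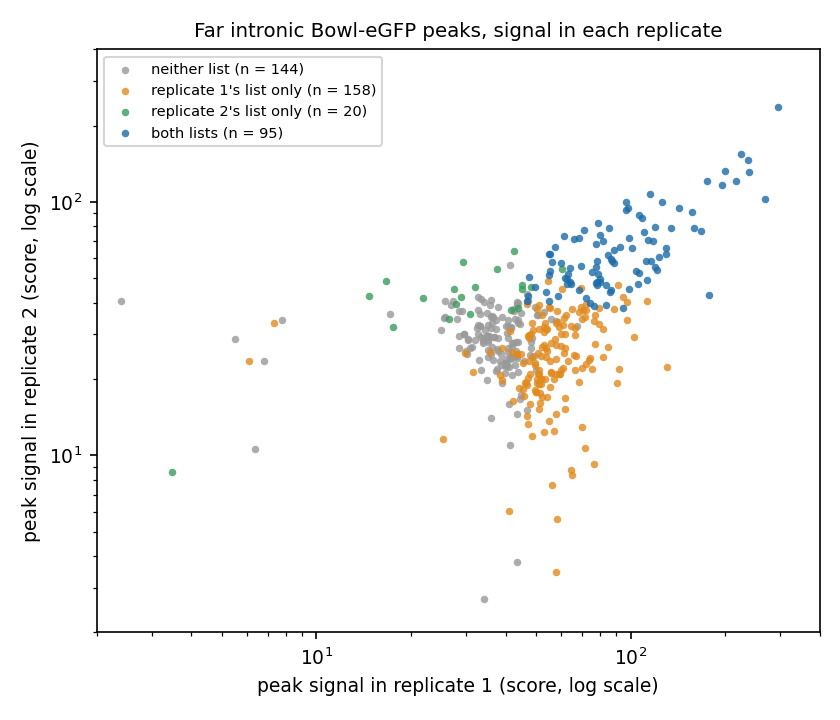
Peak signal of 417 far intronic peaks in replicate 1 (x axis) and replicate 2 (y axis), both scores on a log scale that need not be the same scale. Colours show whether the pooled peak overlaps the replicates' own lists, and the points in both lists lie towards high values on both axes.

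Candidate regions deep in introns entered the lists less often than candidates as a whole. In the pooled ranking, 422 of 36595 far intronic candidates were listed (1.15%, 1.05 to 1.27), where 1.66% of all 132019 candidates were. A further 14 far intronic candidates passed the IDR threshold yet were not in the pooled list. They count neither as members nor as failing candidates. In the conservative list the shares were 0.782% (0.695 to 0.880) and 1.23%. In replicate 1's own list they were 1.05% (0.937 to 1.18, 289 peaks) and 1.63%, and in replicate 2's own list 0.410% (0.344 to 0.489, 123 peaks) and 0.726%. The order was the same in all 4 lists. The far intronic share was above that of far intergenic candidates (0.794%, 0.689 to 0.914) and of candidates in CDS or UTR (0.886%, 0.804 to 0.976), and below that of near intronic candidates (3.95%, 3.66 to 4.27).

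Distance from a TSS went with the share inside introns too. Of candidates 2000 to 5000 bp from a TSS, 1.42% (1.22 to 1.64) became peaks, and of those at 5000 to 10000 bp 1.35% (1.15 to 1.59) did. The share was 0.727% (0.566 to 0.933) at 10000 to 20000 bp and 0.810% (0.600 to 1.09) beyond 20000 bp. The median pooled signal of the members in those classes was 78.2, 77.2, 75.2 and 74.0. Members in both replicates' lists made up 29.0%, 21.0%, 11.5% and 16.7% of the classes, with wide intervals in the last 2 of 5.67 to 21.8 and 8.32 to 30.6.

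At the 2000 bp limit, the 5 peaks just inside were at 2011 bp in Dif (pooled signal 105), 2026 bp in CHES-1-like (374), 2026 bp in Irk1 (57.5), 2038 bp in Dad (33.2) and 2041 bp in CG43658 (75.4). The 5 just outside were at 1989 bp in CG1677 (122), 1975 bp in CG43867 (69.5), 1974 bp in CG14434 (66.8), 1967 bp in CG3764 (89.2) and 1946 bp in Pect (5.48). The limit did not fall in a gap of signal.

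Members lay a median of 5731.5 bp from the nearest protein-coding TSS, with quartiles at 3484 and 9966 bp, where failing far intronic candidates lay a median of 7370 bp away. More than 10000 bp separated 24.4% of members from a TSS (20.6 to 28.7), against 37.3% of failing candidates. The nearest TSS was one of the host gene's own for 73.9% of members (69.5 to 77.9) and 63.7% of failing candidates. The member farthest from any TSS lay in CG43759, 57154 bp away, with a pooled signal of 56.5. The member in the longest intron lay in luna, a Krüppel-like zinc-finger gene, in 108407 bp of intron, with a signal of 70.8.

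Host introns were about as long as those of failing candidates, with medians of 12474.5 bp (11387 to 13569) and 12880 bp. The intron was the first of some transcript of the host for 238 members (56.4%, 51.6 to 61.1) and for 44.1% of failing candidates. When the exons of all transcripts were joined, 33.9% of members and 25.2% of failing candidates lay in the first gap, so the share depends on the definition while both definitions put members higher. Members lay a median of 3003 bp from the nearest exon of the host (2480 to 3508), beside 2791 bp for failing candidates. A TSS of a gene of any kind, non-coding ones included, lay within 500 bp of 19 members (4.50%, 2.90 to 6.92), beside 2.88% of failing candidates.

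By chromosome arm, 99 members were on X, 91 on 3R, 80 on 2R, 77 on 3L, 75 on 2L and 0 on chromosome 4. X held 23.5% of far intronic peaks, 20.9% of failing far intronic candidates and 16.4% of the other peaks. No member lay in an annotated transposable element, a count of 0 of 422 that allows a share of up to 0.711%, and 0.523% of failing candidates did, so a difference was not detectable with this number of peaks. Another far intronic peak lay within 5000 bp of 130 members (30.8%, 26.6 to 35.4).

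The 422 peaks lay in 285 genes, which is 11.1% of the 2562 genes that held at least 1 far intronic candidate. Of these, 209 genes held 1 member, 43 held 2 and 33 held 3 or more, 127 members in all. Host genes held a median of 26 far intronic candidates, against 6 over all genes with one. The share of genes with a member was 2.00% where a gene had 1 to 4 candidates, 8.33% with 5 to 9, 15.2% with 10 to 19, 22.5% with 20 to 49 and 45.5% with 50 or more. The share of candidates that became peaks stayed between 1.01% and 1.40% over the same classes, so the number of members a gene holds must be read against its candidates.

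The gene with the most members was sbb, also known as scribbler or brakeless, a nuclear corepressor gene, with 8 of its 67 far intronic candidates called. Their pooled signals ran from 66.2 to 189, and 4 of the 8 overlapped both replicates' lists. CHES-1-like held 6 of 13, from 54.9 to 374, of which 2 overlapped both. Raf held 5 of 29, where the 3 peaks beside the strong pair had 87.9, 83.4 and 77.3. Hr4, a nuclear receptor gene of the ecdysone response, held 4 of 63 at 211, 196, 128 and 85.3, of which the stronger pair overlapped both lists. simj held 4 of 26, from 60.6 to 233, again with 2 in both.

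In contrast, kirre, which encodes an immunoglobulin-domain receptor of myoblast fusion, held 6 members of 301 candidates that were all weak, from 62.2 to 71.9, and none overlapped both lists. Its members were 1.99% of its candidates, where the share over all genes was 1.15%. The nuclear receptor gene ftz-f1 held 5 members of 46 candidates, from 62.6 to 88.4, and 3 overlapped replicate 1's list and none replicate 2's. The Cul3 adaptor gene rdx held 5 of 66 in 4 regions, with the strongest at 168 and the others from 31.8 to 80.2.

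Of the 15 genes with 4 or more members, 8 had 4 or more separate regions. The count fell to 3 regions for Hipk and cv-c, each with 5 peaks, and for arr, Dad, shn, Glut4EF and bun, each with 4 peaks. None of those 7 genes had a member in both replicates' lists. Their strongest members had pooled signals of 78.0 in Hipk, 108 in cv-c, 100.2 in arr, a Wnt co-receptor gene, 98.9 in Dad, 98.0 in shn, 75.5 in Glut4EF and 70.3 in bun.

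**Figure D3:**
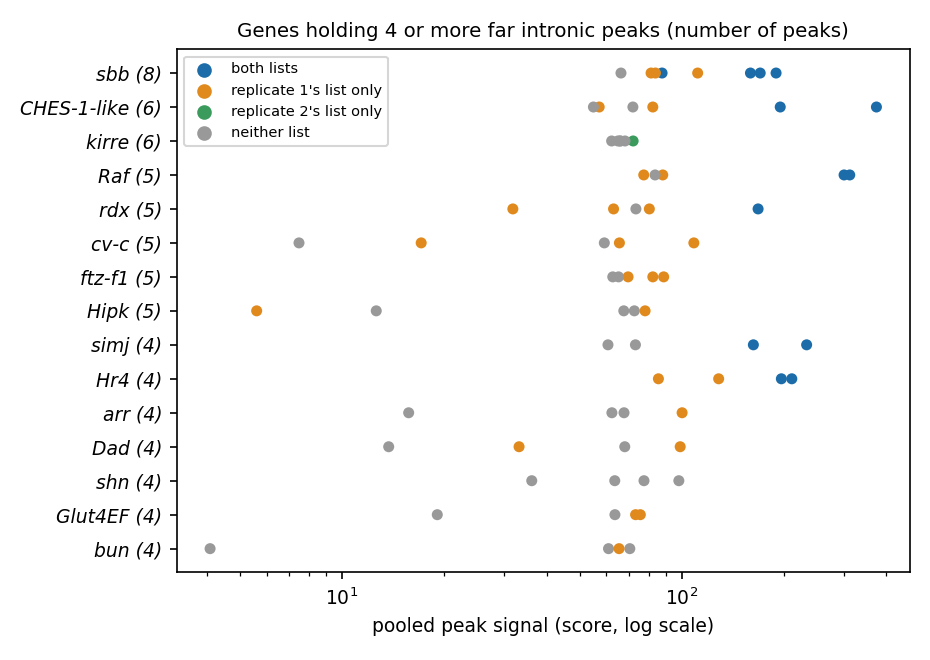
Pooled peak signal (x axis, score on a log scale) of every far intronic peak in the 15 genes that hold 4 or more, 1 point per peak, with the number of peaks in brackets. Colours show overlap with the replicates' own lists. The points under 17.7 overlap a stronger candidate, and sbb, CHES-1-like, Raf, rdx, simj and Hr4 hold the points in both lists.

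The other genes with 3 members were CG6966, cic, tai, mew, beat-Ib, atos, mam, babos, Eip75B, Tis11, Snoo, sick, CG12535, Antp, NetA, PRAS40, CG43759 and CG1677. In CG6966, Antp and PRAS40 the 3 peaks formed 2 separate regions. The strongest members ran from 68.8 in CG1677 to 179 in CG6966. babos stood out by share, with 3 of its 4 far intronic candidates called, at signals from 93.7 to 127. The Notch coactivator gene mam held 3 of 66, from 113 to 135, all in replicate 1's list and none in replicate 2's.

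Host genes were then grouped in 18 lists by known role. The lists were written with earlier results of these data in view, and some of their genes were named there, so the counts describe the members and are not independent evidence of a theme. In all, 87 of the 410 listed genes with a far intronic candidate held a member (21.2%), against 11.1% of all genes with one. Of their 11157 candidates, 160 were peaks (1.43%, 1.23 to 1.67), against 1.15% over all genes. Listed genes had a median of 15.5 candidates and all genes 6, so counts of genes must be read beside counts of candidates. The median was 22.5 in the Dpp list, 18 in the EGFR and FGF list, 26 among nuclear receptors and 7 among chromatin genes.

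Among signalling genes, the Dpp pathway, the fly's BMP pathway, had a member in 5 of 10 genes, and 14 of 208 candidates were peaks (6.73%, 4.05 to 11.0). The ligand gene dpp held 2, with pooled signals of 112 and 90.5. The stronger had 64.0 in replicate 1 and 48.5 in replicate 2 and was in both lists, and the weaker had 57.9 and 33.8 and was in neither. Extracellular regulators of the ligand came next: sog, a BMP antagonist, held 2 (88.9 and 69.0), and cv-2, a BMP-binding protein gene, held 2 (87.4 and 55.6). Inside the cell, Dad, the inhibitory Smad, held 4 (98.9, 67.9, 33.2 and 13.7), the last beside the peak of 67.9. The zinc-finger cofactor shn held 4 (98.0, 77.4, 63.5 and 36.2). Dad and shn formed 3 separate regions each, so the 14 peaks count overlapping peaks separately. Outside dpp, no member of the pathway overlapped both replicates' lists. The members of shn and cv-2 overlapped neither list, Dad had 2 in replicate 1's list only, and each member of sog was in 1 list. Over all members, 34.4% overlapped neither list. The median over the pathway was 73.2, against 77.3 over all members.

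The EGFR and FGF pathways had a member in 7 of 21 genes and 14 of 445 candidates (3.15%, 1.88 to 5.21), with a median signal of 103.99. They held the ligand gene bnl, a fly FGF (1 member, 103.6), S and ru, whose products help process EGFR ligands (131, and 2 members up to 66.6), the secreted EGFR antagonist aos (193), the kinase Raf (312), and the nuclear repressors aop (116) and cic (3 members up to 178). At aos, replicate 1 gave 96.4 and replicate 2 gave 92.4.

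In the Hedgehog pathway 4 of 10 genes and 8 of 264 candidates (3.03%, 1.54 to 5.86) had members, and rdx held 5 of the 8. The glypican genes dlp (91.5) and dally (68.1) and the kinase gene Pka-C1 (63.4) held 1 each. In the Wnt pathway 4 of 20 genes had a member, namely the receptor fz (2, up to 152), the secreted antagonist Notum (133), arr (4) and the inhibitor nkd (81.4). In the Notch pathway 3 of 9 did, the receptor N (141), mam (135) and scrib (69.5), which is known chiefly as a cell polarity gene, and 1 name on this list could not be matched. The JAK/STAT, insulin and Hippo list had 3 of 17, the Hippo genes ex (120.2), kibra (2, up to 104.2) and wts (2, up to 66.1). The shares of candidates in these 3 lists were 1.80%, 1.62% and 2.03%, with intervals that hold the 1.15% of all genes.

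Among regulators of transcription, nuclear receptors had a member in 6 of 14 genes and 16 of 446 candidates (3.59%, 2.22 to 5.75): ftz-f1, Hr4, Eip75B (3, up to 124), Hr3 (2), EcR (96.7) and Hr39 (72.3). EcR is the ecdysone receptor, and Hr3, Hr4, Eip75B and ftz-f1 act after ecdysone pulses. Chromatin genes had 7 of 19 genes and 10 of 232 candidates (4.31%, 2.36 to 7.75). Tlk and osa were followed by the Polycomb gene Psc (158), the trithorax gene trx (97.7), Smr (88.9), gpp (2, up to 71.1) and kis (57.5). BTB and zinc-finger factors had 9 of 33 genes and 21 of 947 candidates (2.22%, 1.45 to 3.37), with sbb, dar1 (138), sr (130.3) and rib (116) the strongest. The forkhead, T-box and HMG list had 7 of 194 candidates (3.61%), 6 of them in CHES-1-like and 1 in bi, so that share rests on 1 gene.

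Growth and cell death regulators had 9 of 357 candidates (2.52%, 1.33 to 4.72), led by msn (94.3), with 4 of the 9 in bun.

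Of 6 further lists, axon guidance and RNA-binding genes had shares of candidates with intervals below the 1.15% of all genes. Homeodomain, ion channel and cytoskeleton genes had lower shares of candidates with intervals that hold it. The share of bHLH and bZIP factors was slightly higher, with an interval that holds it too. Homeodomain factors had a member in 4 of 38 genes and 7 of 940 candidates (0.745%, 0.361 to 1.53), in hth (2, up to 151), Antp (3 in 2 regions, up to 94.5), ct (78.0) and tup (68.0). Of the Hox genes on the list only Antp held any, and Ubx had 82 far intronic candidates and 0 members. Axon guidance and adhesion genes had 16 of 2815 candidates (0.568%, 0.350 to 0.921), led by sli (139), Sema1a (115), Fas3 (108) and ed (105). RNA-binding protein genes had 6 of 1431 (0.419%, 0.192 to 0.912), led by mbl (151) and shep (151). By gene, 9 of 59 axon guidance genes (15.3%, 8.24 to 26.5) and 6 of 27 RNA-binding genes (22.2%, 10.6 to 40.8) held a member. Both intervals hold the 11.1% of all genes with a candidate. Genes of these 2 lists had medians of 39 and 23 candidates, against 6 over all genes. Ion channel and synaptic genes had 6 of 810 (0.741%, 0.340 to 1.61), led by Ih (129), and cytoskeleton and small GTPase regulators 4 of 725 (0.552%, 0.215 to 1.41), led by pyd (84.4). bHLH and bZIP factors had 6 of 450 (1.33%, 0.612 to 2.88), led by tai (168).

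In the odd-skipped family, bowl itself held 2 members of its 6 far intronic candidates. The first, at chr2L:3776567-3776876 and 2216 bp from a TSS, had 119 pooled, 69.6 in replicate 1 and 55.7 in replicate 2, and overlapped both lists. The second, at chr2L:3775662-3775971 and 3121 bp from a TSS, had 96.2 pooled, 48.3 and 46.0, and overlapped replicate 2's list only. drm had 4 far intronic candidates and 0 members, and odd and sob had 0 candidates of this kind. Over all genes 1.15% of far intronic candidates were members, so 0 of 4 does not set drm apart. The strain carries a bowl-eGFP transgene, and any effect of it on the signal at bowl was not tested.

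The base composition at the summits differed between members and candidates. Within 25 bp of the summit, GC content had a median of 33.3% over members (31.4 to 35.3), against 43.4% in the flanks 75 to 150 bp away. The centre was lower than the flanks in 304 of 422 members (72.0%, 67.6 to 76.1). In failing far intronic candidates the centre had 45.1% and the flanks 43.4%, and the centre was lower in 46.3%. Near intronic peaks (35.3% and 42.8%) and far intergenic peaks (35.3% and 43.4%) showed the same dip. Taken from their own lists, the centre was 33.3% in replicate 1 and 31.4% in replicate 2. Whether base composition affected the sequencing or the peak calling was not tested.

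**Figure D4:**
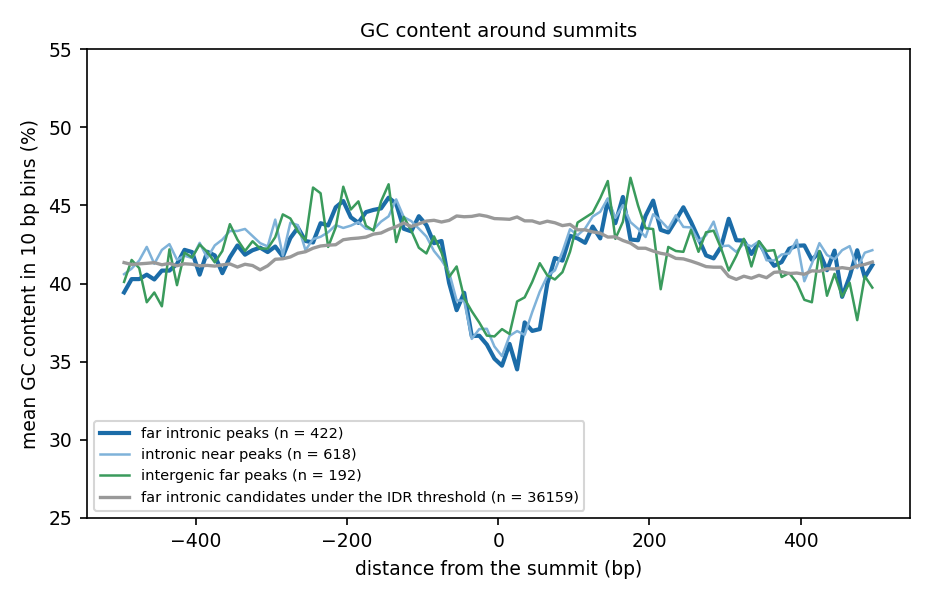
Mean GC content in 10 bp bins (y axis, percent, from 25 to 55) by distance from the summit (x axis, bp) for far intronic peaks, near intronic peaks, far intergenic peaks and failing far intronic candidates. The 3 peak sets fall towards the summit and the candidates rise slightly.

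The share of candidates that became peaks followed the GC content within 100 bp of the summit. It was 3.85% (3.30 to 4.49) of the 4000 far intronic candidates under 35% GC, 1.75% at 35 to 40%, 0.705% at 40 to 45% and 0.549% (0.449 to 0.673) at 45% or more. Over all candidates in the same classes it was 6.56%, 2.85%, 1.31% and 0.802%. In each class the far intronic share was lower than the share over all candidates.

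Words were searched on both strands within 100 bp of each summit, and the share of failing far intronic candidates with the word in a window of the same length is given beside each. ACAGTGG was within 100 bp of 57 members (13.5%, 10.6 to 17.1), against 2.82% of failing candidates, 13.6% of near intronic peaks and 9.90% of far intergenic peaks. The share was higher in members in each class of GC content, at 11.7%, 15.7%, 19.4% and 9.68% from the lowest to the highest class, against 2.13%, 2.40%, 2.85% and 3.11%. CACTGA was near 76 members (18.0%, 14.6 to 22.0), against 8.94% of failing candidates, 15.9% of near intronic peaks and 16.1% of far intergenic peaks. At 45% GC or more its share in members was 7.53% (3.69 to 14.7) and 9.05% in candidates, so the excess did not hold there. Either word was near 124 members (29.4%, 25.2 to 33.9), against 27.3% of near intronic peaks, 26.04% of far intergenic peaks, 23.1% of all other peaks and 11.5% of failing candidates, and 9 members had both. ACAGTGG and CACTGA were chosen with results of these data known, so their excess over failing candidates describes the members and is not independent evidence.

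In the ranking of 828 words of 7 bases found near at least 20 members, by the ratio of shares in members and failing candidates, the first 3 words, each read on both strands, were TACAGTG (10.7% and 1.75%), TACACTG (9.72% and 1.99%) and ACAGTGG. The first and last of these overlap by 6 bases, and TACACTG holds CAGTG on its other strand. CAGTG alone was near 52.1% of members, 31.9% of failing candidates and 52.9% of near intronic peaks. A word of a different kind, TTAATAT, was near 15.6% of members and 5.24% of failing candidates. From the lowest to the highest class of GC content its shares were 27.3%, 15.7%, 7.46% and 2.15% of members and 14.7%, 8.38%, 4.67% and 2.28% of failing candidates. The ratio of the members' share to the candidates' share was thus smaller in each class than without classes. In the highest class members had no excess. These words were picked from the members, so their shares describe them only.

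The summits lay mostly on one side of ACAGTGG and of CACTGA. Within 200 bp, the summit was downstream of ACAGTGG, along the strand on which it reads so, in 80 of 99 occurrences (80.8%, 72.0 to 87.4), with a median of 68 bp. The other peaks gave 83.3% and 74.5 bp, and failing candidates 48.2%. For CACTGA the summit was downstream in 108 of 148 occurrences (73.0%, 65.3 to 79.5), with a median of 57 bp, against 62.4% in other peaks and 49.6% in failing candidates. TTAATAT showed no such side, with 46.4% downstream (37.3 to 55.6) and a median of -15 bp. The stretches printed above from CHES-1-like, Lrch and Hr4 are examples of the first word, and that from osa, whose summit lay 92 bp upstream of CACTGA, is an exception for the second.

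**Figure D5:**
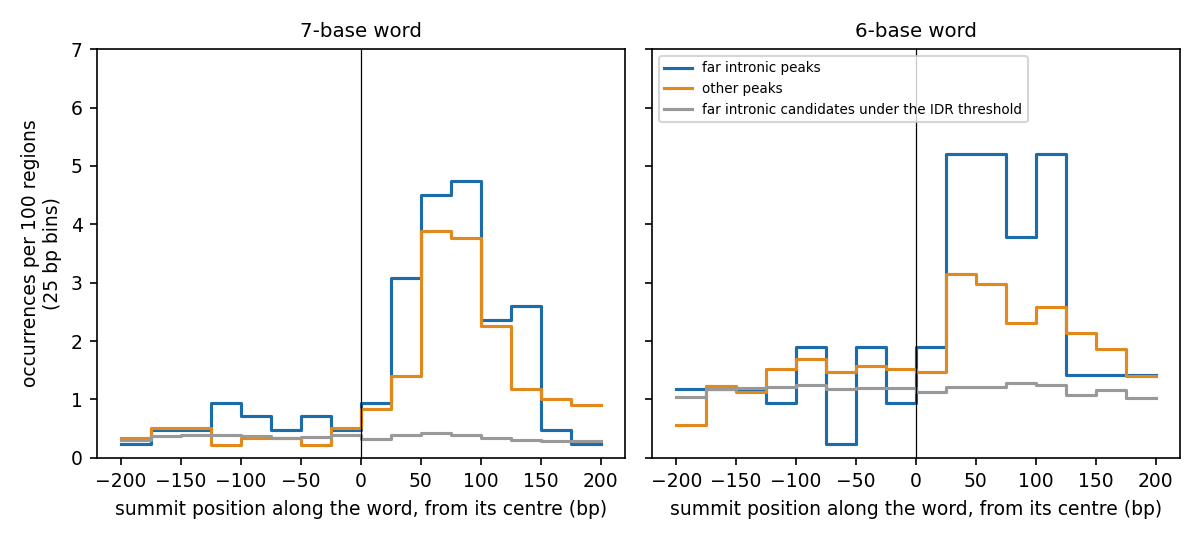
Occurrences per 100 regions (y axis, 25 bp bins) of the 7-base word ACAGTGG (left) and the 6-base word CACTGA (right) by the position of the summit along the word's strand, measured from the word's centre (x axis, bp). Far intronic peaks and other peaks rise downstream, at positive values, and failing far intronic candidates are flat.

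Members with either word had a median pooled signal of 80.9 (74.7 to 91.0), and those with neither 75.7 (73.0 to 80.2), so the intervals overlap. The shares in both replicates' lists were 27.4% (20.3 to 35.9) and 20.5% (16.3 to 25.4), which overlap too. Taken by word, the share was 35.1% (24.0 to 48.1) of the 57 members with ACAGTGG and 23.7% (15.5 to 34.4) of the 76 with CACTGA. The interval for ACAGTGG overlaps that of members with neither word only at its lower end. From signal bin 1 to bin 4, ACAGTGG was near 9.24%, 14.9%, 11.9% and 19.8% of members, and the intervals of bin 1 (5.24 to 15.8) and bin 4 (12.5 to 29.7) overlap.

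The odd-skipped core CAGTAGC was near 10 members (2.37%, 1.29 to 4.31), against 1.57% of failing candidates, which is within the interval, and 2.42% of the other peaks. At 45% GC or more it was near 5 of 93 members (5.38%, 2.32 to 11.97), and the 1.82% of failing candidates lay below that interval. That gap rests on 5 members. In the lower classes of GC content the candidate share lay within the members' interval. The 10 members near CAGTAGC were in cic (pooled signal 178), Trim9 (91.3), dpp (90.5), Raf (87.9), ftz-f1 (82.2), Glut4EF (75.5), CG8170 (72.0), CG31522 (64.3), Atg18b (61.8) and rdx (31.8). The peak in cic, in signal bin 4, had 112 in replicate 1 and 58.5 in replicate 2, and the others were in bins 1 to 3. Within 200 bp, 8 of its 17 occurrences had the summit downstream. No match in a window says only that these letters are not in it.

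Within 100 bp of the summit, words of other known factors were mostly as common in members as in failing candidates. GAGAGAG, read by GAGA factor, was near 14 members (3.32%, 1.99 to 5.49) and 3.05% of failing candidates. Its share was 9.55% in near intronic peaks (7.47 to 12.1) and 5.21% in far intergenic peaks (2.85 to 9.32). At 45% GC or more it was near 8 of 93 members (8.60%, 4.42 to 16.1), and the 3.65% of failing candidates lay below that interval. That difference rests on 8 members. In the 3 lower classes of GC content the candidate share lay within the members' interval. TAATTA, a homeodomain word, was near 12.3% of members and 12.2% of failing candidates. Within the classes of GC content its shares were lower in members than in failing candidates, at 18.2%, 12.04%, 10.4% and 4.30% against 21.4%, 16.2%, 13.1% and 8.21%, and the candidate share lay within the members' interval in each class. The Zelda word CAGGTAG was near 4 members (0.948%) and 0.993% of failing candidates. The DREF word TATCGATA was near 0 of 422 members, which allows up to 0.711%, near 0.221% of failing candidates and near 2.25% of the other peaks (1.66 to 3.05). Among those other peaks it was near 0 of 192 far intergenic peaks (Wilson interval up to 1.96) and 0.809% of near intronic peaks (0.346 to 1.88). Its absence was thus not particular to far intronic peaks. The forkhead word TGTTTAC was near 7.82% of members (5.62 to 10.8) and 4.13% of failing candidates, and the GATA word AGATAA near 12.1% (9.31 to 15.5) and 9.01%. In near intronic and far intergenic peaks TGTTTAC had 6.80% and 3.125%, and AGATAA 13.6% and 15.1%. Median GC content within 100 bp was 37.3% in members and 44.3% in failing candidates. These 2 words were not split by class of GC content, so whether their gaps hold within classes was not tested.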

How the data were processed

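The authors deposited ranked and IDR-thresholded peak lists of the dm6 genome, per the labels. Each replicate has its own pair, and the pooled data have a larger and a conservative thresholded list. Notes deposited with the samples trace them to alignments and a control. Aligner and peak caller are not given in the sources used. The deposited peak signal is a score of unstated scale, used as deposited to describe, rank and filter peaks within 1 list at a time, and values from different lists are set side by side without comparing their size. The deposited ranked lists also hold the −log10 of the irreproducible discovery rate (IDR), and failing candidates are regions under a value of 2, an IDR of 0.01. The summit offset in bp is also the authors'.

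Summits were annotated with Ensembl release 115 models (BDGP6.54) and sequences read from RefSeq Release 6. The host gene is the protein-coding gene over the summit whose own TSS is nearest. A replicate's signal is that of the candidate in its own ranked list with the largest overlap, at least 1 bp. The rank agreement between the replicates' signals is not reported here. Intervals are 95% Wilson intervals for shares and order-statistic intervals for medians, in Python 3.11.15 with numpy 2.4.6, pandas 2.3.3 and scipy 1.17.1. A count of 0 was given the limit that 3 counts allow. No test between groups was made, since there is 1 group. Of 654 listed gene names, 626 matched by name, 18 by synonym and 10 stayed unmatched. The annotation and word searches were tested on simulated data. The members, gene lists and words were chosen with earlier results of these data known. Genes named are those of the strongest 15 and lowest 3 members, those with 3 or more members, the strongest of each list, the odd-skipped family, the 5 peaks on each side of the distance limit, members of extreme position and members with the printed words. Further list members were named after their values were seen. Distance limits, lists, overlaps, word windows and intron definitions were varied, and the replicates' own lists served as leaving out a replicate.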

Additional observations from a re-analysis of the deposited data

How the results depend on the processing

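Of 73 alternative values for 18 results, 41 stayed within the interval of the main value or within 1.5 times a count, and 32 moved. A 5000 bp limit left 246 peaks and the conservative list 275, and the replicates' own lists 123 to 289. The listed share of far intronic candidates was 1.36% at 1000 bp, 1.02% at 5000 bp and 1.33% with overlapping candidates merged. At 1000 and 5000 bp it was 0.947% and 0.667% in the conservative list, 1.25% and 0.920% in replicate 1's and 0.520% and 0.292% in replicate 2's. The median signal was 93.8 in the conservative list and 53.8 to 59.2 in the replicates' lists. At or above the median signal, 89.6%, 55.5% and 52.2% of members overlapped replicate 1's, replicate 2's and both lists. Within 50 and 200 bp, ACAGTGG was near 4.74% and 17.3%, GAGAGAG near 0.711% and 11.4% and TAATTA near 8.53% and 20.6%. In the replicates' lists their ranges were 13.5% to 17.9%, 2.44% to 5.88% and 13.1% to 18.7%. Joined exons gave 33.9% in a first intron, and the shortest intron a median of 14045 bp. Over the replicates' lists the median TSS distance was 4739 to 5627 bp, with 107 to 214 host genes and 37 to 71 listed ones. Alternatives for the last distance and listed genes, and the merging of peaks into regions, were chosen after seeing the data. The causes were not tested. No paired analysis was possible because there is 1 group. Depth is unknown, and the overlap of members with both lists was limited to signal bins 3 and 4.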
